A study of Mus musculus with 21 samples.

Results

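The neurofilament and neuronal cytoskeleton genes are 10 genes, taken by name from the 55400 genes of the count table: *Nefl*, *Nefm*, *Nefh*, *Ina*, *Prph*, *Gap43*, *Stmn2*, *Tubb3*, *Map2* and *Dcx*. The rule that chose them uses no measured value, although they were picked with earlier results of these data known, and all 10 passed the filter on low counts in every comparison. They were followed through the in vitro differentiation of wild-type C57BL/6 mouse embryonic stem cells (mESCs) into motor neurons (MNs) of the hypaxial type, by RNA-seq of poly(A) RNA from 21 libraries in 7 groups of 3 biological replicates. Every group had been grown from mESCs kept on mitomycin-C-treated fibroblasts, formed into embryoid bodies, and exposed to retinoic acid and the Smoothened agonist SAG from day 2. The untreated groups were D4 (day 4, motor neuron progenitors, pMN), D4H8 (8 hours later, proneural, pnMN), D5 (newborn MNs, nbMN) and D6 (maturing MNs, mMN). DAPT, an inhibitor of Notch signalling, was present from D4 on, and the medium was changed at D5 to one with DAPT but without retinoic acid and SAG, so that each step between stages holds these additions as well as time. D4H8_GSKJ4, D5_GSKJ4 and D6_GSKJ4 received in addition GSKJ4, an inhibitor of the H3K27 demethylases, among them Kdm6b, beginning 1 day before collection. All groups carry the label of differentiated MNs, whatever their stage.

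Neurofilaments are the intermediate filaments of neurons. The light (*Nefl*), medium (*Nefm*) and heavy (*Nefh*) subunits assemble together with alpha-internexin (*Ina*) or peripherin (*Prph*), fill the axon and set its calibre, and they are most abundant in large projection neurons such as MNs, in which the heavy subunit is known to appear late. Microtubules, built from alpha- and beta-tubulin, are the tracks of axonal transport: *Tubb3* encodes the beta-tubulin of neurons, the products of *Map2* and *Dcx* bind and stabilize microtubules, *Stmn2* encodes a stathmin that binds tubulin in growth cones, and *Gap43* encodes a membrane protein of growing axons.

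In the GENCODE annotation of GRCm38, *Nefl* lies on chromosome 14 from 68083863 to 68089095 on the plus strand, inside the span that the annotation gives to *Nefm* on the minus strand (68082590 to 68124846), and exons of both overlap. The strand setting of the counting was not stated, so the division of reads between *Nefl* and *Nefm* is uncertain where they overlap. Exons of *Ina* (chromosome 19, 47014698 to 47025327, plus strand) overlap exons of *Nt5c2* on the opposite strand, a gene with at most 2312 counts in any library where *Ina* reached 40399. The others lie apart from each other, *Nefh* on chromosome 11, *Prph* on 15, *Gap43* on 16, *Stmn2* on 3, *Tubb3* on 8, *Map2* on 1 and *Dcx* on X.

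RefSeq promoter sequences on GRCm38.p6 were at hand for 5 of the 10 genes, *Ina*, *Prph*, *Tubb3*, *Map2* and *Dcx*. Those of *Ina*, *Tubb3* and *Dcx*, which rose in the first 8 hours after D4, are shown with that of *Prph*, whose change at that step did not pass the test. *Map2* rose at that step too, and its sequence is not shown. Each runs 5′ to 3′ on the gene's own strand and ends before the gene as GENCODE draws it. Capitals mark matches, on either strand, to the TATA box (letters TATAAA), the GC box (letters GGGCGG), the box of letters CCAAT, the E-box (letters CAGCTG) and a homeodomain core (letters TAATTA), none of which overlap here.
Ina (chr19:47014431-47014680, plus strand): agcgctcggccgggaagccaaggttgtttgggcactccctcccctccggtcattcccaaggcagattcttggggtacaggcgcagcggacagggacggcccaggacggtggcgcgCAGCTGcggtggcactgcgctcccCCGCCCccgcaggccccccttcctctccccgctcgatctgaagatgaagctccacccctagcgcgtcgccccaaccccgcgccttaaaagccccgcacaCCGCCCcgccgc
Tubb3 (chr8:123411303-123411423, plus strand): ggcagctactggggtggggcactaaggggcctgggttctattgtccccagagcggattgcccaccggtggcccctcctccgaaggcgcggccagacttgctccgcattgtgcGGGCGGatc
Dcx (chrX:143933312-143933469, minus strand): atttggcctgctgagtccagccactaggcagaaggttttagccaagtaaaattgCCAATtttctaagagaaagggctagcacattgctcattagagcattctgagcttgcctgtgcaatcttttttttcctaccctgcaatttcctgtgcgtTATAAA
Prph (chr15:99054924-99055173, plus strand): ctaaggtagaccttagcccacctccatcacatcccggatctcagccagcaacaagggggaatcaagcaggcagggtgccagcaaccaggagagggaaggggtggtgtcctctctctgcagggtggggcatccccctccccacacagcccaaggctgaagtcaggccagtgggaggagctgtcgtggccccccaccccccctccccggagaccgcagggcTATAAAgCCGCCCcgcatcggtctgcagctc
In the 250 bases before the RefSeq start, of which 129 are not shown for *Tubb3* and 92 for *Dcx*, *Prph* held the TATA box letters 31 bases and the GC box letters 24 bases before the start. *Ina* held GC box letters at 111 and 12 bases and the E-box letters at 135 bases. *Tubb3* held GC box letters at 138 and 46 bases and the CCAAT letters at 77 bases. *Dcx* held the TATA box letters at 98, the CCAAT letters at 196 and the homeodomain letters at 39 bases. *Map2* held GC box letters at 249, 208, 97, 82 and 44 bases and no match to the others. Of all 32851 RefSeq promoter windows of this length, 12.4% held the TATA box letters, 32.7% those of the GC box, 33.8% those of the CCAAT box, 13.0% those of the E-box and 4.84% those of the homeodomain core. The matches describe letters only.

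Total counts ran from 14982115 to 34383842 per library, with a median of 16238435. The deepest library was D4H8 replicate 1, and D5_GSKJ4 replicate 2 stood apart with 39381 genes at 0, where the others had 29339 to 32805. No pair of replicates differed by sampling noise alone, since their mean chi-square per gene was between 6.94 and 117. Of 10 motor neuron markers (*Mnx1*, *Isl1*, *Isl2*, *Lhx3*, *Lhx4*, *Chat*, *Slc18a3*, *Slc5a7*, *Slit2* and *Prph* itself), 4 had a mean of at least 1 FPKM at D4, 9 at D4H8 and at D5, and all 10 at D6. At D4 the cholinergic enzyme gene *Chat* was at 0.227 FPKM, so the label of MNs was met by these markers at the later stages more than at D4.

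At D6 the levels of the 10 genes spanned from 6.38 to 1306 FPKM. In FPKM, the count of a gene scaled to its exonic length and to the total of its library, *Tubb3* had the highest level at D6 (1306 ± 74.7, SD, n = 3 here and below), followed by *Nefl* (949 ± 25.7), *Gap43* (729 ± 16.6), *Nefm* (690 ± 162), *Ina* (644 ± 105), *Stmn2* (271 ± 28.0), *Prph* (201 ± 0.641), *Dcx* (154 ± 25.9), *Map2* (55.0 ± 6.54) and *Nefh* (6.38 ± 1.21). In this order *Gap43*, *Nefm* and *Ina* had overlapping libraries, and no other neighbours did. The span of *Nefl* at D6 was 934 to 979 FPKM and that of *Nefm* 564 to 873 FPKM. *Map2* and *Dcx* have the longest exonic lengths of the 10, 16456 and 12647 bases summed over all transcripts, and a level per length is lower where a transcript in use is shorter than that sum. *Nefm* (5782 bases) had more counts than *Nefl* (3380 bases) in every D6 library, so their order in FPKM rests on these lengths.

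**Figure D1:**
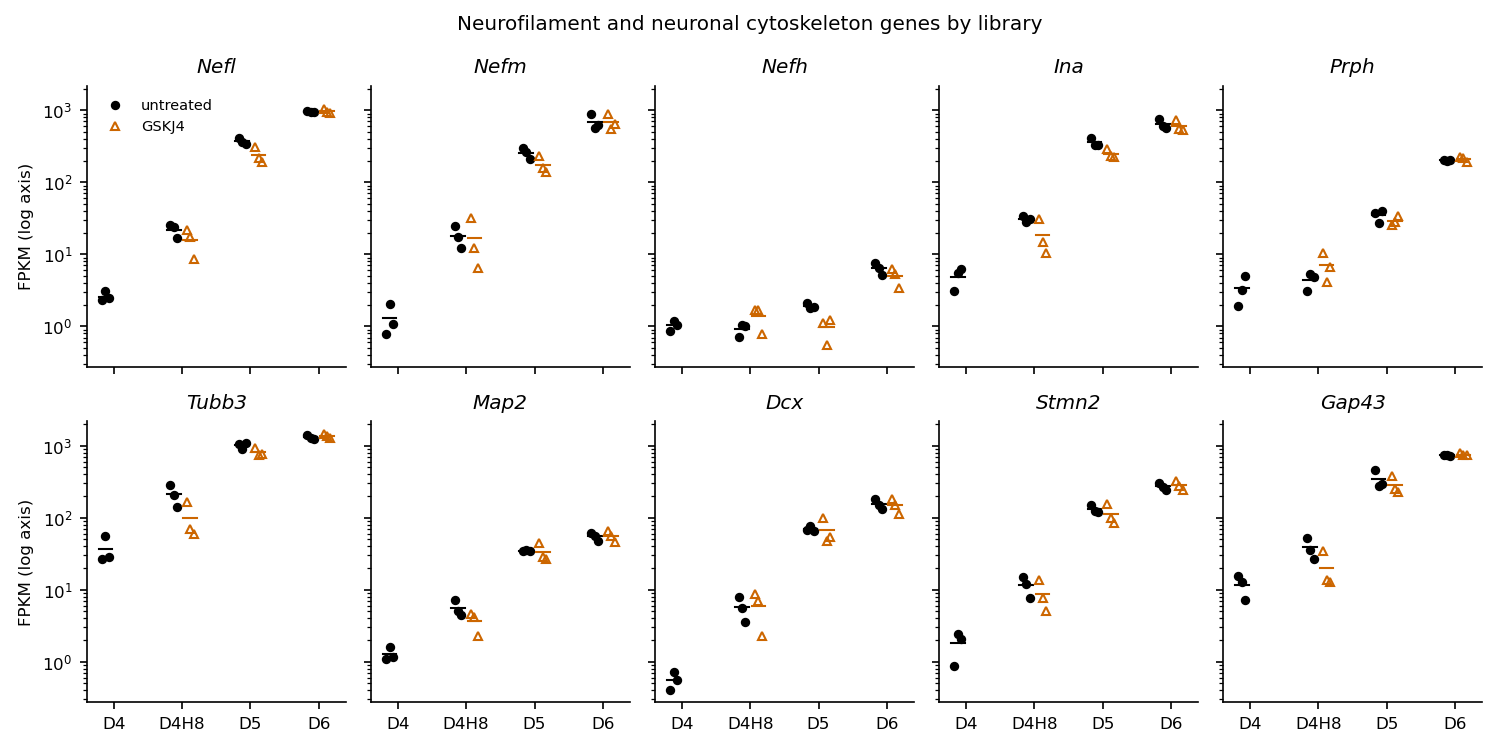
Level of each gene in each library, in FPKM on a log axis, at D4, D4H8, D5 and D6. Filled circles are untreated and open triangles GSKJ4-treated libraries, with a line at the mean of 3. *Nefl* went from 2.60 at D4 to 949 FPKM at D6, and *Nefh* from 1.04 to 6.38 FPKM.

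All 10 genes rose from D4 to D6 by edgeR's quasi-likelihood test, where 32.9% of the 17519 tested genes rose and 31.0% fell. Their median log2 fold change was 6.56, against -0.04 over all tested genes. The changes ran from 2.69 (SE 0.22) for *Nefh* to 9.15 (SE 0.44) for *Nefm*, a 569-fold difference, with adjusted p between 2.32e-11 and 1.72e-07. In RNA from whole cultures, more neurons and more RNA per neuron cannot be told apart. Over the same interval the summed level of the 10 motor neuron markers went from 9.96 to 25.3 FPKM in the D4 libraries to 688 to 760 FPKM at D6, while that of 10 markers of dividing cells went from 809 to 869 to 68.9 to 174 FPKM, and all 10 of the latter fell. Their part in these rises was not tested.

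The light and medium neurofilament subunits, the core of the filament, rose at every step. *Nefl* was at 2.29, 3.06 and 2.44 FPKM in D4 replicates 1, 2 and 3, at 25.1, 23.9 and 17.1 at D4H8, at 414, 359 and 344 at D5 and at 979, 935 and 934 at D6. *Nefm* was at 0.78, 2.04 and 1.07 FPKM at D4, at 24.6, 17.5 and 12.4 at D4H8, at 296, 265 and 208 at D5 and at 873, 564 and 632 at D6. For both genes each stage lay wholly above the stage before it. The log2 fold changes of *Nefl* were 3.04 (SE 0.19), 4.08 (SE 0.19) and 1.46 (SE 0.17) at the 3 steps, and those of *Nefm* 3.79 (SE 0.36), 3.82 (SE 0.34) and 1.55 (SE 0.31). All 6 changes had an adjusted p of 0.00195 or less.

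*Nefh*, the heavy subunit, stayed low for longest. Its libraries held 0.87, 1.19 and 1.06 FPKM at D4, 0.71, 1.06 and 1.00 at D4H8, 2.13, 1.79 and 1.86 at D5 and 7.48, 6.56 and 5.09 at D6. The first 2 stages overlapped, and D5 and D6 each lay above all earlier libraries. Between D4 and D4H8 its log2 fold change was -0.23 (SE 0.22, adjusted p = 0.642), on 60 to 97 counts per library. It rose by 1.08 (SE 0.22, adjusted p = 0.00235) to D5 and by 1.85 (SE 0.21, adjusted p = 2.94e-05) to D6, where it stood at a mean of 6.38 FPKM beside 949 FPKM of *Nefl*.

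Alpha-internexin and peripherin, the partners of the triplet, took different courses. *Ina* was at 3.07, 5.42 and 6.26 FPKM at D4, 34.0, 28.1 and 30.6 at D4H8, 414, 329 and 329 at D5 and 764, 597 and 570.4 at D6, with no overlap between stages. *Prph* was at 1.89, 3.22 and 5.05 FPKM at D4, 3.10, 5.29 and 4.84 at D4H8, 37.2, 27.6 and 39.9 at D5, and 201, 200.2 and 201 at D6. *Prph* thus overlapped between the first 2 stages only. *Ina* rose by 2.63 (SE 0.22), 3.54 (SE 0.23) and 0.97 (SE 0.21) on the log2 scale. For *Prph* the first step was 0.34 (SE 0.26, adjusted p = 0.551), and it rose by 3.01 (SE 0.26) and 2.64 (SE 0.24) at the later steps, the last being the largest change of the 10 genes from D5 to D6.

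*Tubb3*, the neuronal beta-tubulin, was the most abundant of the 10 at every stage. It was at 26.2, 55.0 and 28.6 FPKM at D4, 284, 204 and 141 at D4H8, 1049, 894 and 1082 at D5 and 1389, 1283 and 1245 at D6. The stages did not overlap. *Tubb3* rose by 2.48 (SE 0.29, adjusted p = 0.000133) to D4H8 and by 2.26 (SE 0.28, adjusted p = 4.7e-05) to D5. From D5 to D6 its log2 fold change was 0.49 (SE 0.27, 95% interval -0.09 to 1.07, adjusted p = 0.184), the only one of the 10 genes whose last step did not pass, though every D6 library lay above every D5 library. That value depended on the filter: over the alternatives its adjusted p ran from 0.0152, with no filter on low counts, to 0.398.

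The microtubule-binding proteins and the stathmin behaved alike in direction. *Map2* was at 1.09, 1.62 and 1.16 FPKM at D4 and at 61.0, 56.0 and 48.0 at D6, passing through 4.44 to 7.20 at D4H8 and 34.0 to 36.0 at D5. *Dcx*, a marker of young neurons, was at 0.41, 0.73 and 0.56 FPKM at D4, at 3.59 to 7.91 at D4H8, at 65.7 to 75.7 at D5, and at 183, 147 and 133 at D6. *Stmn2* was at 0.86, 2.46 and 2.09 FPKM at D4, at 7.78 to 14.8 at D4H8, at 119 to 148 at D5 and at 301, 265 and 246 at D6. None of these genes had libraries that overlapped between stages. Their log2 fold changes from D4 to D6 were 5.49 (SE 0.23) for *Map2*, 8.18 (SE 0.35) for *Dcx* and 7.33 (SE 0.37) for *Stmn2*. Each rose at all 3 steps, with the smallest change for *Map2* from D5 to D6 (0.78, SE 0.19, adjusted p = 0.00674). In one fit over all 21 libraries that step of *Map2* was 0.74 with an adjusted p of 0.0581 (alternatives 6.84e-06 to 0.0581).

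*Gap43*, the growth cone protein, started at the second highest level of the 10 at D4. Its libraries held 15.4, 12.6 and 7.24 FPKM at D4, 53.0, 36.0 and 26.5 at D4H8, 463, 279 and 293 at D5 and 742, 736 and 711 at D6. The stages did not overlap. *Gap43* rose by 1.64 (SE 0.32, adjusted p = 0.00813), 3.16 (SE 0.33) and 1.19 (SE 0.31) on the log2 scale. Without the deep D4H8 replicate 1 the first of these was 1.31 with an adjusted p of 0.05, and 7 of the 10 genes were then called at that step.

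By step, 8 of the 10 genes rose from D4 to D4H8, where 4.06% of tested genes did. All 10 rose from D4H8 to D5 (17.2% of tested genes) and 9 of 10 from D5 to D6 (19.2% of tested genes). The median log2 fold change of the 10 was 2.56, 3.34 and 1.23 at these steps, against -0.02, 0.01 and -0.02 over all tested genes. Since neighbouring steps share a stage, the steps of a gene are not independent. Of the log2 rise from D4 to D6, *Tubb3* made 47.5% in the first step and 9.3% in the last, whereas *Prph* made 5.7% and 44.0%. *Nefh* made 68.5% in the last step. The other 7 made 27.4 to 41.4% in the first step, 41.7 to 52.8% in the second and 13.6 to 19.8% in the last.

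**Figure D2:**
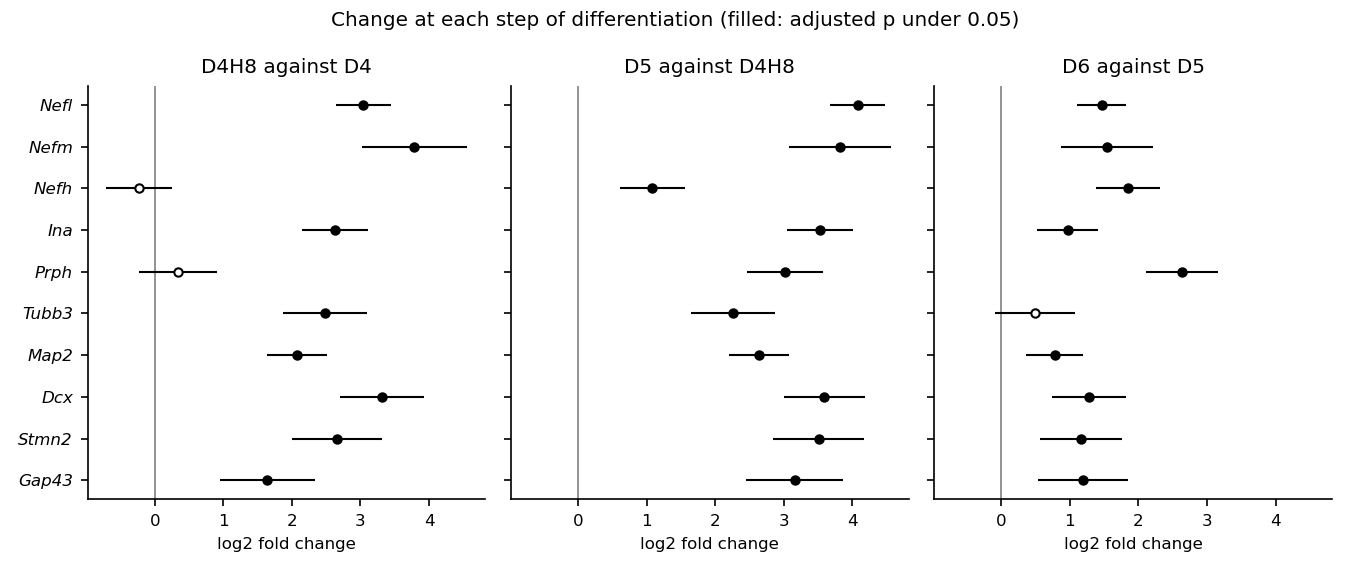
Log2 fold change of each gene at each step, with its 95% confidence interval from edgeR. Filled points passed an adjusted p under 0.05. *Nefh* and *Prph* are open at the first step and *Tubb3* at the last.

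The make-up of the neurofilament family was compared as the share of each gene in the summed FPKM of *Nefl*, *Nefm*, *Nefh*, *Ina* and *Prph*. That sum was 8.90, 14.9 and 15.9 FPKM in the D4 libraries, 65.9 to 87.5 at D4H8, 923 to 1164 at D5 and 2302 to 2824 at D6. *Ina* held the largest share at D4H8 (38.9, 37.1 and 46.4%) and *Nefl* at D6 (34.7, 40.6 and 39.9%). In raw counts *Nefm* exceeded *Nefl* in every D6 library, so that rank of *Nefl* rests on the scaling to length. Between these stages the mean share of *Ina* went from 40.8 to 25.8% and that of *Nefl* from 28.7 to 38.4%, with no overlap of libraries for either. *Nefm* had 23.3% at D4H8 and 27.5% at D6, with overlap. *Nefh* had 8.14 ± 1.56% at D4, when the sum was lowest, 1.24 ± 0.378% at D4H8 and 0.256 ± 0.0348% at D6. The share of *Prph* was 24.9 ± 6.01% at D4, 3.44 ± 0.786% at D5 and 8.14 ± 0.874% at D6. With 3 against 3 libraries the exact two-sided permutation test cannot give a p below 0.1, and the non-overlapping changes of *Nefl*, *Nefh* and *Ina* from D4H8 to D6 had p = 0.1 (0.343 adjusted over 24 comparisons of shares). When only the triplet was summed, the difference in the share of *Nefl* was 3.92 percentage points in place of 9.63.

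**Figure D3:**
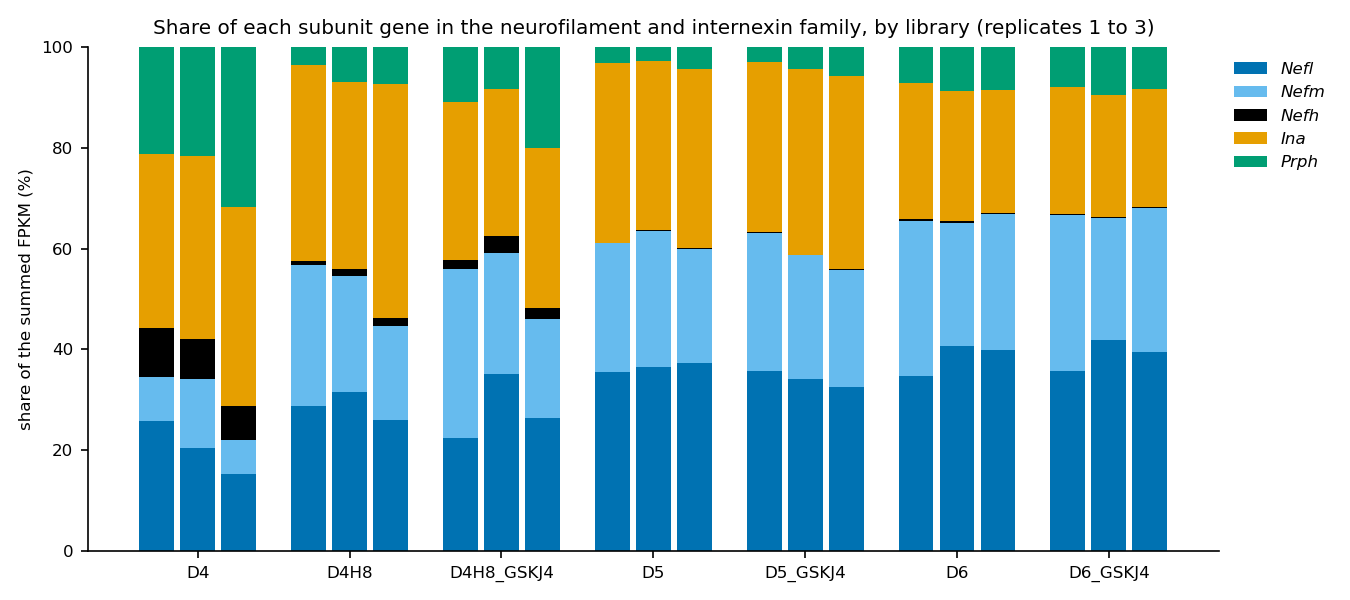
Share of each gene in the summed FPKM of the neurofilament and internexin family, in percent, with 1 bar for each library in the order of replicates 1 to 3 within each group. *Nefl* holds 34.7 to 40.6% at D6, and *Prph* is widest at D4, with 21.2 to 31.8%.

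Among the beta-tubulins, *Tubb3* went from a small share of the FPKM at D4 to the largest at D6. It held 2.31, 4.13 and 2.27% of the summed beta-tubulin FPKM at D4, 14.4, 11.7 and 9.35% at D4H8, 39.0, 33.1 and 34.1% at D5 and 33.1, 31.5 and 32.2% at D6. The D6 libraries lay above those of D4 by 29.4 percentage points on average, with an exact permutation p of 0.1, the smallest possible. On raw counts the difference was 23.4 points. *Tubb5*, a beta-tubulin of most cell types, held 64.9 ± 0.761% at D4 and 28.8 ± 1.37% at D6, although its level was 807 and 1166 FPKM at these stages. At D5 *Tubb5* held 28.3, 34.7 and 36.9%, above *Tubb3* in replicates 2 and 3. The order of *Tubb3* and *Tubb5* in raw counts was not compared. *Tubb2b*, another tubulin abundant in young neurons, went from 8.82 ± 1.53 to 23.7 ± 1.72%.

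The wider cytoskeleton was read from 7 lists of related genes. From D4 to D6 all 9 tested axonal spectrins, ankyrins and adducins rose (median log2 fold change 2.88), as did 15 of 16 axonal transport motors (median 2.13), 18 of 20 other microtubule-binding proteins and stathmins (2.27), 16 of 18 growth cone and actin regulators (1.36) and 12 of 16 tubulin-modifying enzymes (1.73). In these lists 0, 0, 1, 1 and 2 genes fell. The other tubulins were divided, with 5 of 11 higher and 5 lower (median -0.75), and so were the other intermediate filaments, with 3 of 10 higher and 4 lower (median -0.26). The medians stand beside -0.04 for all tested genes, and the shares higher and lower beside 32.9% and 31.0%.

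**Figure D4:**
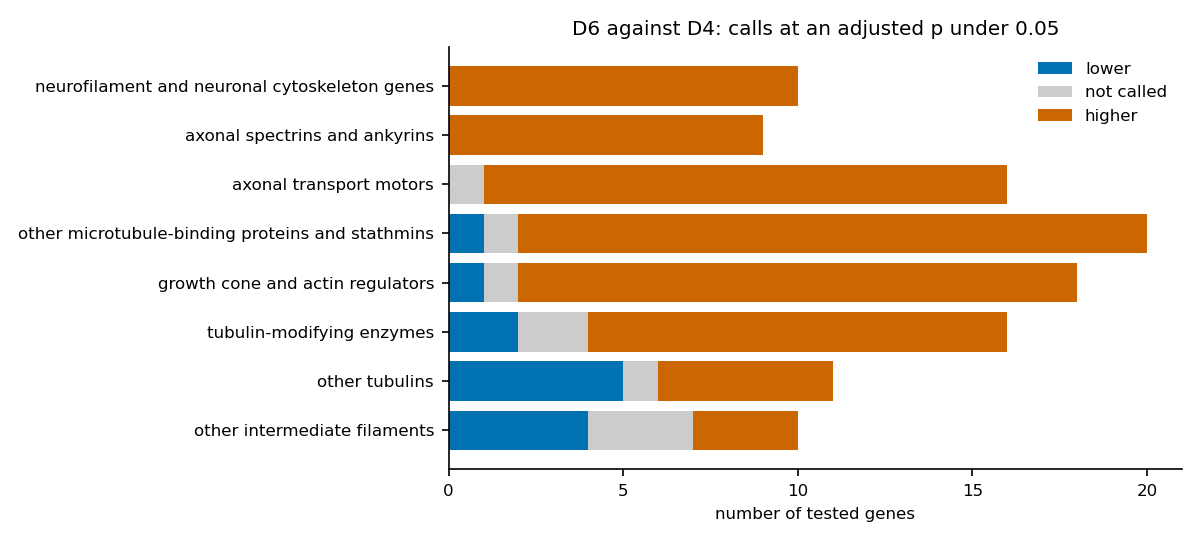
Number of tested genes called higher, lower or neither at D6 against D4 in each list, at an adjusted p under 0.05. The bar of the 10 neurofilament and neuronal cytoskeleton genes is all higher, and the tubulins and other intermediate filaments hold both directions.

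*Mapt*, which encodes the axonal microtubule protein tau, went from 0.283 ± 0.0321 to 115 ± 19.1 FPKM (log2 fold change 8.75, SE 0.22), and the stathmin gene *Stmn4* from 1.36 ± 0.764 to 118 ± 10.5 FPKM (6.44, SE 0.37). *Add2*, of the adducins that cap actin in the membrane skeleton, went from 0.350 ± 0.142 to 44.8 ± 5.73 FPKM, and *Ank3*, whose product ankyrin-G organizes the axon initial segment, from 1.32 ± 0.140 to 24.0 ± 3.18 FPKM. Of the motors, *Kif5a*, a neuronal kinesin that moves neurofilaments, rose from 3.46 ± 0.658 to 113 ± 11.4 FPKM, and the dynein intermediate chain gene *Dync1i1* from 0.0567 ± 0.0231 to 9.60 ± 1.83 FPKM. *Tubb4a* and *Tubb2a* rose by 4.66 (SE 0.25) and 4.23 (SE 0.18) on the log2 scale, *Basp1* and *Coro1a* by 3.27 (SE 0.15) and 3.49 (SE 0.31), and the tubulin tyrosine ligase-like genes *Ttll11* and *Ttll7* by 3.25 (SE 0.38) and 3.11 (SE 0.22).

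The falls in these lists were smaller than the largest rises. *Tubb6* fell by 2.24 (SE 0.27) and *Tuba4a* by 2.16 (SE 0.37) on the log2 scale, and the epithelial keratin gene *Krt18* and the lamin gene *Lmnb1* fell by 1.35 (SE 0.31) and 1.05 (SE 0.12). *Map7*, *Ttll4* and the profilin gene *Pfn1* fell by 1.16 (SE 0.36), 1.22 (SE 0.11) and 0.77 (SE 0.15). *Synm* and *Lmna* were the intermediate filament genes with the largest rises, 2.19 (SE 0.27) and 1.40 (SE 0.16). *Tubb2b*, *Tubb2a*, *Tubb5* and other tubulins have close relatives in the genome, and reads shared between them could not be assigned here.

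Other cell types were followed by marker lists over the same stages. Of 10 neural progenitor markers 1 was higher and 6 lower at D6 than at D4, of 8 pluripotency markers 1 was lower, and of 10 fibroblast markers 3 were higher, beside 32.9% of all tested genes higher and 31.0% lower. The summed pluripotency markers ran from 126 to 299 FPKM at D4 and from 15.5 to 117 at D6, lowest in replicate 1. Sensory and neural crest markers (5 of 9 higher, 2 lower), spinal interneuron markers (4 of 7 higher) and glial markers (5 of 6 higher, 1 lower) summed to 60.7 to 111, 8.51 to 11.4 and 19.2 to 21.5 FPKM at D6. *Prph*, *Nefl* and *Nefm* are also known from sensory neurons. The part of these cells in the levels of the 10 genes was not tested.

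GSKJ4 at D4H8 left none of the 10 genes past the threshold by edgeR (3.96% of 16269 tested genes were called in either direction), and DESeq2 called 1. The 644 genes behind that share were 43, 50 and 47 without D4H8 replicate 1, 2 or 3, 541, 1746 and 450 without D4H8_GSKJ4 replicate 1, 2 or 3, and 1980 with DESeq2. At an unadjusted p under 0.05, 3 were lower (*Tubb3*, *Gap43* and *Ina*), where 11.0% of tested genes were, and none was higher. None had all treated below all untreated libraries, where 14.3% of tested genes did. *Tubb3* was at 166, 69.3 and 59.8 FPKM with GSKJ4 against 284, 204 and 141 without, so that treated replicate 1 lay above untreated replicate 3. Its log2 fold change was -1.15 (95% interval -2.04 to -0.25, adjusted p = 0.117, and 1.3e-05 to 0.385 over the alternatives). *Gap43* was at 34.0, 13.7 and 12.6 against 53.0, 36.0 and 26.5 FPKM (-0.99, -1.89 to -0.10, adjusted p = 0.159), and *Ina* at 30.5, 14.7 and 10.4 against 34.0, 28.1 and 30.6 FPKM (-0.78, -1.55 to -0.01, adjusted p = 0.193).

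In all 3 genes the treated replicate 1 stood above the other treated libraries. Without D4H8_GSKJ4 replicate 1 the edgeR test called all 3, with log2 fold changes of -1.72 (adjusted p = 0.038), -1.57 (adjusted p = 0.0451) and -1.31 (adjusted p = 0.038), and it called the same 3 when no filter on low counts was applied. With the replicate number as a block edgeR called these 3 as well (adjusted p of 0.00206 for *Tubb3*, 0.00493 for *Gap43* and 0.0217 for *Ina*). Calls over the whole table rose too, from 644 to 2287 with no filter and 2274 with the block. They were 541 without D4H8_GSKJ4 replicate 1. Over the alternatives the adjusted p of *Gap43* ran from 0.00114 to 0.487 and that of *Ina* from 0.00855 to 0.453. The other 7 genes had intervals that held 0. *Nefl* was at -0.49 (-1.23 to 0.26), *Nefm* at -0.15 (-1.28 to 0.98), *Stmn2* at -0.44 (-1.26 to 0.37), *Map2* at -0.61 (-1.30 to 0.09) and *Dcx* at 0.04 (-1.0 to 1.08) on the log2 scale. *Nefh* (0.58, -0.30 to 1.45) and *Prph* (0.64, -0.13 to 1.42) were above 0. In shares of the family, *Ina* had 30.7% with and 40.8% without GSKJ4 *Prph* 13.1 and 5.95% and *Nefh* 2.49 and 1.24%, each without overlap of libraries (exact permutation p = 0.1, 0.343 adjusted). The median of the 10 genes was -0.46, against 0.02 over all tested genes.

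Of the other lists, growth cone and actin regulators had 3 of 18 genes lower at D4H8 with GSKJ4, where 1.85% of all tested genes were lower. Over the alternatives 2 to 6 of these 18 were called, 5 of them by DESeq2, which also called 5 of 11 other tubulins and 3 of 15 motors where edgeR called 1 and 1. *Tmsb4x*, which encodes the actin-sequestering thymosin beta-4, was at 83.4 ± 19.1 against 373 ± 134 FPKM (-2.21, SE 0.30, adjusted p = 0.0105), and *Fez1*, a kinesin adaptor of axon outgrowth, at 2.69 ± 0.744 against 11.6 ± 1.42 FPKM (-2.16, SE 0.24, adjusted p = 0.00476). *Tubb2b* of the tubulins (-1.31, SE 0.23, adjusted p = 0.0235) and *Kif21a* of the motors (-0.87, SE 0.20, adjusted p = 0.047) were lower as well. The calls of *Tubb2b* and *Kif21a* did not last without any 1 of the D4H8 libraries (adjusted p of 0.0684 to 0.127 and 0.13 to 0.233), nor without D4H8_GSKJ4 replicate 3 (0.0512 and 0.0831), and that of *Kif21a* not without D4H8_GSKJ4 replicate 1 (0.073). Over all alternatives their adjusted p ran from 3.04e-07 to 0.127 and from 0.00184 to 0.233, while *Tmsb4x* and *Fez1* were called in each of 13. Of the 54 tested genes of the remaining 4 lists edgeR called 0 and DESeq2 9, and at an unadjusted p under 0.05 edgeR had 10 higher and 6 lower, beside 14.1% and 11.0% of all tested genes. *Tmsb4x* has close copies in the genome, which could share its reads. Motor neuron markers moved in the same contrast: 3 of 9 tested were lower (*Isl1*, *Lhx3* and *Chat*), and the sum of all 10 ran from 19.7 to 42.0 FPKM with GSKJ4 and from 65.8 to 68.9 without. Neural progenitor markers, of which 5 of 10 were lower, summed to 63.8 to 128 against 241 to 329 FPKM, and both sums were highest in treated replicate 1. Their part in the values of the 10 genes was not tested.

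Cells collected at D4H8 after a day of GSKJ4 were also set against untreated D4 cells, to see which of the 10 genes stood above that level. Their GSKJ4 began before D4 and there is no treated D4 group. Untreated D4 is therefore not the starting level of these cells. This comparison shares its treated libraries with the one above and its D4 libraries with the first untreated step. *Nefl* (2.54, SE 0.34), *Nefm* (3.62, SE 0.56), *Ina* (1.83, SE 0.38), *Stmn2* (2.20, SE 0.42), *Map2* (1.44, SE 0.30) and *Dcx* (3.33, SE 0.46) were higher than at D4, 6 of the 10, where 1.08% of tested genes were higher. *Tubb3* had a log2 fold change of 1.32 (SE 0.39, adjusted p = 0.0846) with no overlap of libraries, and *Gap43* one of 0.64 (SE 0.41, adjusted p = 0.376) with overlap. Beside these stand the untreated changes from D4 to D4H8 of 2.48 for *Tubb3* and 1.64 for *Gap43*. The count of 6 rested on every D4 library: without D4 replicate 1, 2 or 3 none of the 10 was called by edgeR, although the values of the 6 stayed between 1.34 and 4.08 with adjusted p of 0.0563 to 0.195. Without D4H8_GSKJ4 replicate 1 there were 3 (*Nefl*, *Nefm* and *Dcx*). Over all tested genes 340 were called in the main test and 11 to 1102 with 1 library left out.

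**Figure D5:**
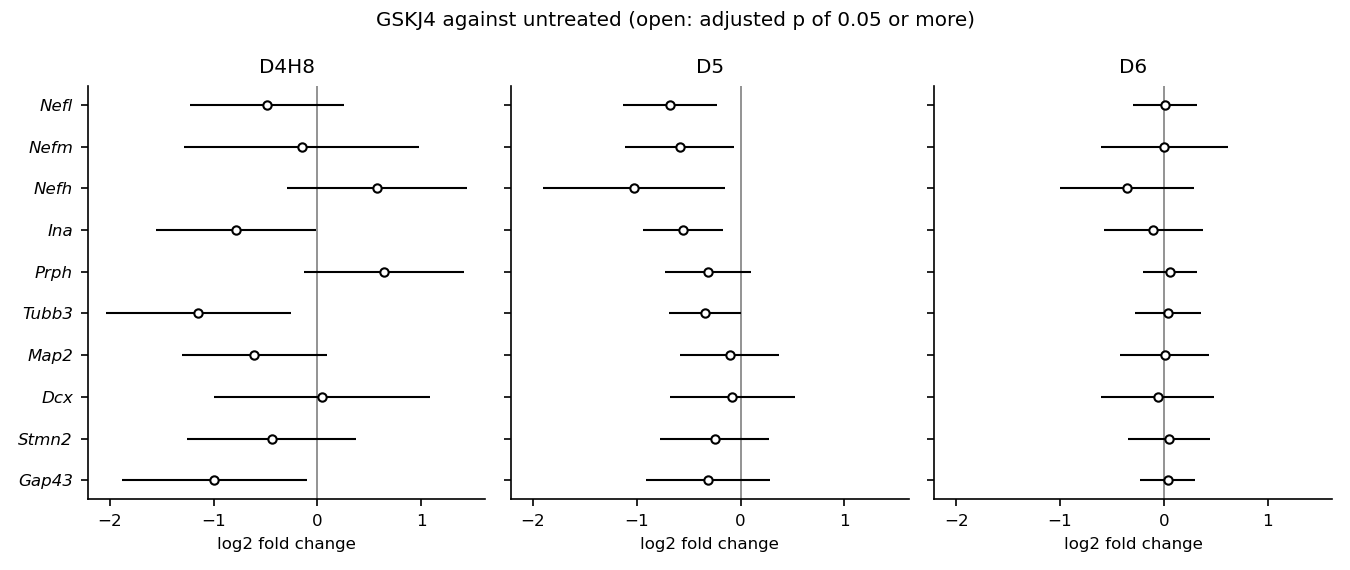
Log2 fold change of each gene with GSKJ4 against without it at D4H8, D5 and D6, with its 95% confidence interval from edgeR. All points are open, since none of the adjusted p values was under 0.05. Each interval is narrower at D6 than at D4H8, though those of *Nefm* and *Ina* are wider at D6 than at D5. The D6 values lie between -0.36 and 0.06.

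At D5 all 10 genes had a log2 fold change below 0 with GSKJ4, and none was called by edgeR or by DESeq2 (0.00613% of 16309 tested genes were called by edgeR in either direction). Their median was -0.33, against -0.02 over all tested genes. Of the 16309 tested genes 8542 had a value below 0. The 10 genes varied together between libraries, so their signs are not independent. At an unadjusted p under 0.05, 4 were lower, *Nefl*, *Nefm*, *Nefh* and *Ina*, where 2.39% of tested genes were. In 3 of them, *Nefl*, *Nefh* and *Ina*, every treated library lay below every untreated library, as it did in 5.13% of tested genes.

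The light subunit *Nefl* was at 305, 216 and 194 FPKM with GSKJ4 and at 414, 359 and 344 without (-0.68, 95% interval -1.13 to -0.23, adjusted p = 0.906). *Ina* was at 289, 234 and 228 against 414, 329 and 329 FPKM (-0.56, -0.94 to -0.17, adjusted p = 0.976). The heavy subunit *Nefh* was at 1.12, 0.56 and 1.23 against 2.13, 1.79 and 1.86 FPKM (-1.03, -1.91 to -0.15, adjusted p = 0.976), on 35 to 131 counts per library. None of these treated values reached an untreated one. *Nefm* was at 233, 156 and 138 against 296, 265 and 208 FPKM (-0.59, -1.11 to -0.06, adjusted p = 0.976), where treated replicate 1 lay above untreated replicate 3. Over the alternatives the adjusted p of the 4 genes ran from 0.102 to 1.

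Of the remaining 6 genes at D5, *Tubb3* was at 936, 747 and 771 against 1049, 894 and 1082 FPKM (-0.34, -0.69 to 0.01). *Prph* (-0.32, -0.73 to 0.10), *Gap43* (-0.32, -0.92 to 0.28), *Stmn2* (-0.25, -0.78 to 0.28), *Map2* (-0.11, -0.58 to 0.37) and *Dcx* (-0.08, -0.68 to 0.53) overlapped. *Dcx* in treated replicate 1 was at 99.6 FPKM, above all untreated libraries (65.7 to 75.7), with 47.3 and 54.2 in the others. The sum of the motor neuron markers ran from 209 to 248 FPKM with GSKJ4 and from 315 to 367 without, all 10 of these markers had values below 0, and 6 of them an unadjusted p under 0.05. No gene of the 7 cytoskeleton lists was called by edgeR or DESeq2 at D5, with 1 higher and 9 lower of 99 tested at an unadjusted p under 0.05 by edgeR, beside 2.31% and 2.39% of all tested genes. Leaving out D5_GSKJ4 replicate 2, the library with most genes at 0, left the count of called genes at 0.

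At D6 the treated and untreated libraries of all 10 genes overlapped. None was called by edgeR or DESeq2, none had an unadjusted p under 0.05 (0.822% of 16301 tested genes were lower at that level), and none had all treated below all untreated libraries (2.48% of tested genes). No gene of the whole table was called there by edgeR (0% of tested genes), whereas DESeq2 called 1 and edgeR with the replicate number as a block, which pairs these libraries, called 257. *Nefl* was at 1025, 952 and 904 FPKM with GSKJ4 and 979, 935 and 934 without, with a log2 fold change of 0.01 (-0.30 to 0.32). *Tubb3* was at 1442, 1337 and 1274 against 1389, 1283 and 1245 FPKM (0.04, -0.28 to 0.36), and *Gap43* at 787, 730.2 and 737 against 742, 736 and 711 FPKM (0.04, -0.23 to 0.30). The interval of *Prph* (0.06, -0.20 to 0.32) was about as narrow, and those of *Stmn2* (0.05, -0.35 to 0.45) and *Map2* (0.01, -0.42 to 0.44) were wider. *Nefm* (0.00, -0.61 to 0.62), *Ina* (-0.10, -0.58 to 0.38) and *Dcx* (-0.06, -0.61 to 0.49) were less closely bounded, and *Nefh*, on 224 to 488 counts, least (-0.36, -1.01 to 0.29). These intervals are unpaired. By replicate number, *Nefh* and *Ina* were lower with GSKJ4 in 3 of 3 pairs and *Tubb3* higher in 3 of 3. With the replicate block none of the 10 genes was called, and the adjusted p was 0.051 for *Nefh* (log2 fold change -0.38), 0.11 for *Ina* and 0.515 or more for the others. Over the alternatives that of *Nefh* ran from 0.051 to 1. The sum of the motor neuron markers was 629 to 750 FPKM with and 688 to 760 without GSKJ4.

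Whether the effect of GSKJ4 differed between stages was tested as an interaction over 18 libraries. None of the 10 genes was called by edgeR or DESeq2 in any of the 3 pairs of stages, where 0.249% (D5 against D4H8), 0.735% (D6 against D4H8) and 0% (D6 against D5) of 18103 tested genes were. The largest values between D6 and D4H8 were those of *Tubb3* (1.20, SE 0.44, adjusted p = 0.235) and *Gap43* (1.04, SE 0.49, adjusted p = 0.361), the 2 with an unadjusted p under 0.05. Without D4H8_GSKJ4 replicate 1 that of *Tubb3* was 1.78 with an adjusted p of 0.0138. Between D5 and D4H8 *Nefh* (-1.62, SE 0.51, adjusted p = 0.27) and *Prph* (-0.99, SE 0.34, adjusted p = 0.313) had an unadjusted p under 0.05, and between D6 and D5 none did. The comparisons share libraries of the stage they have in common.

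The 10 genes also varied together between replicates. Replicate 1 had the highest FPKM for 8 of the 10 genes at D4H8, 10 at D4H8_GSKJ4, 6 at D5, 8 at D5_GSKJ4, and 10 at D6 and at D6_GSKJ4, whereas at D4 replicate 2 was highest for 7. The matching share over all genes was not computed, so these counts do not set the 10 genes apart from others. The median ratio of replicate 1 to its group mean was 1.29 at D4H8, 1.51 at D4H8_GSKJ4 and 1.11 at D6. At D6 the same replicate had 68.9 FPKM of summed markers of dividing cells, where the others had 145 and 174, and 15.5 FPKM of pluripotency markers, where the others had 106 and 117. Their part in the height of replicate 1 was not tested.

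Across the 21 libraries the level of each gene was set against the mean of the other 9, on log2(CPM + 1). Pearson's r was 0.94 or more for all but *Nefh* (0.718), with *Nefl* highest (0.996) and *Prph* at 0.94. Of 10490 genes with a mean of at least 10 CPM, the 10 whose pattern was most like the mean of the members were *Add2*, *Apc2*, *Map6*, *L1cam*, *Ngfr*, *Ncam1*, *Crmp1*, *Disp2*, *Smpd3* and *Rtn1*, with r from 0.994 to 0.997. *Add2* and *Map6* belong to the lists above, and *L1cam* and *Ncam1* encode adhesion molecules of axons. These correlations describe 21 libraries that share 4 stages, and most of the variation lies between the stages.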

How the data were processed

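Poly(A) RNA from 21 libraries, in 7 groups of 3 labelled biological replicates, was analysed. Per the labels and the study's methods, the authors trimmed reads with Fastp, aligned them to mm10 with HISAT2, sorted them with SAMtools and counted reads per gene with HTSeq. The strand setting was not given in the sources used here. The deposited count table holds whole, unnormalised reads per gene, and the deposited FPKM table was made by the authors from the same counts, the exonic gene lengths and each library's total; recomputed FPKM differed by at most 0.005. Gene names, gene positions and promoters came from GENCODE M21 and RefSeq annotation of GRCm38. The 10 genes and all lists were chosen with earlier results of these data known.

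Counts were tested with the quasi-likelihood test of edgeR 4.0.16 (R 4.3.3, limma 3.58.1), with TMM scaling, filterByExpr (minimum count 10) and Benjamini-Hochberg adjustment over all tested genes, called at 0.05. The 4 untreated stages were fitted together, each GSKJ4 comparison on its 6 libraries, and the differences between stages on 18. Shares were compared by two-sided exact permutation tests, and intervals are 95%. Beside the 10 genes, the text names from each list at most 2 rises and 2 falls, those largest by log2 fold change among called genes with a mean of at least 100 counts. Likeness used log2(CPM + 1). In simulated counts with 200 altered genes per comparison, edgeR recovered 96% of 2-fold changes for GSKJ4 at D4H8 (16288 genes). It recovered 97% for D6 against D4 (17035 genes). These shares hold for the simulated counts and do not say how many real changes of that size were found. The coefficient of variation between real replicates was 0.273 in the GSKJ4 fit at D4H8 and 0.2 in the untreated fit. Both are above the spread set in the simulation. *Tubb3*, 2.21-fold lower with GSKJ4 at D4H8, was not called by edgeR (adjusted p = 0.117).

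The tests of the 10 genes (for the differences between stages, the counts and the values of *Tubb3* and *Gap43*), the named list genes and the list counts at D6 against D4 and with GSKJ4 were recomputed with DESeq2 1.42.0, with 2 other scalings (upper quartile, RLE), without the filter or with a filter of 10 counts per library, with the replicate number as a block, with all 21 libraries in one model, and without each library in turn. Shares were recomputed on raw counts, on the triplet alone or without *Tubb1* and *Tubb6*, and without each library. Marker sums, replicate ranks and likeness have no alternative. Replicates with the same number deviated together (every correlation over 0.1) between neighbouring stages (0.164 to 0.425) and between D6 and D6_GSKJ4 (0.553 to 0.854), a pairing seen in the data and not given by the labels. P-values measure the spread between these libraries. Figures used matplotlib 3.10.9, and tables pandas 2.3.3, numpy 2.4.6 and scipy 1.17.1 under Python 3.11.15.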

Additional observations from a re-analysis of the deposited data

How the results depend on the processing

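The counts of called genes between stages changed little under the alternatives run: 10 of 10 for D6 against D4 and for D5 against D4H8, 8 to 10 for D6 against D5, and 8, or 7 without D4H8 replicate 1, for D4H8 against D4. For GSKJ4 at D4H8 the count of 0 was 1 with DESeq2 (*Tubb3*), 1 in one fit over all 21 libraries (*Tubb3*), 3 with no filter on low counts and 3 with the replicate block (*Tubb3*, *Gap43* and *Ina* in both, adjusted p of 0.00206, 0.00493 and 0.0217 with the block). It was 0 to 3 when 1 library was left out, with 3 only without D4H8_GSKJ4 replicate 1. All-gene calls at D4H8 went from 644 to 1980 with DESeq2, 2048 in one fit, 2287 with no filter and 2274 with the block. At D5 and D6 the count of the 10 genes called was 0 under every alternative. The count of 6 for D4H8_GSKJ4 against D4 was 0 to 6 with 1 library left out and 6 to 8 otherwise. Over all genes that comparison had 340 calls, and 11 to 1102 with 1 library left out. For the difference between D6 and D4H8 the count of 0 was 2 with no filter (*Tubb3* and *Gap43*), 1 with the replicate block (*Tubb3*, adjusted p = 0.0451) and 0 to 1 with 1 library left out, and the other 2 differences stayed at 0 with 1 library left out. The causes were not tested. A comparison was taken as paired only where every same-number correlation was over 0.1. That did not hold for GSKJ4 at D4H8 and D5, D6 against D4, or D4H8_GSKJ4 against D4. The replicate block in those is only a check. For GSKJ4 at D4H8 the correlations were 0.494, 0.0896 and 0.308, so a pairing of its libraries is not excluded. Among the paired comparisons the block changed no call of the 10 genes, and at D6 with GSKJ4 it raised the calls over all genes from 0 to 257. The log2 fold changes that reversed were those of GSKJ4 comparisons. They were *Dcx* at D4H8 with the replicate block (-0.10), *Nefm* at D6 with DESeq2 (-0.001), and *Nefm* (-0.006) and *Map2* (-0.001) at D6 in one fit over all libraries. With 1 library left out, log2 fold changes ran from -0.97 to 0.25 for *Nefm* and -0.29 to 0.44 for *Dcx* at D4H8, and from -0.42 to 0.041 for *Map2* and -0.53 to 0.13 for *Dcx* at D5. At D6 they ran from -0.072 to 0.071 for *Nefl*, -0.25 to 0.25 for *Nefm*, -0.29 to 0.076 for *Ina*, -0.021 to 0.14 for *Prph*, -0.031 to 0.081 for *Gap43*, -0.10 to 0.17 for *Stmn2*, -0.041 to 0.12 for *Tubb3*, -0.16 to 0.14 for *Map2* and -0.28 to 0.12 for *Dcx*. In percentage points, the rise in the share of *Nefl* from D4H8 to D6 was 3.92 within the triplet alone and 8.25 to 11.5 with 1 library left out, and that of *Tubb3* from D4 to D6 was 23.4 on raw counts and 29.0 to 30.0. Within the triplet the share of *Nefm* differed by -1.92 points between D6 and D4H8, in place of 4.19 in the whole family, and by -0.0663 with GSKJ4 at D6. With 1 library left out, GSKJ4 differences in share ran from -4.24 to 2.08 (D4H8) and -1.14 to 2.38 (D6) for *Nefl*, from -1.52 to 5.45 (D4H8), -1.22 to 1.01 (D5) and -1.10 to 2.28 (D6) for *Nefm*, and from -0.0804 to 0.788 (D6) for *Prph*. *Nefh* had at most 131 counts in any library before D6. Its SE was the largest of the 10 genes for GSKJ4 at D5 (0.39). It was not for D4H8 against D4 (0.22, beside 0.36 for *Nefm*).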
